A study of Mus musculus with 4 samples.

Results

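The 9 genes described here encode KDM2B and its partners in variant Polycomb repressive complex 1.1 (PRC1.1): Kdm2b, Pcgf1, Bcor, Bcorl1, Ring1, Rnf2, Rybp, Yaf2 and Usp7, out of 21938 protein-coding genes in the annotation. The rule that chose them goes by name, as subunits of the complex, and uses no measured value. Their promoters, gene bodies and the 20 kb on either side were searched in lists of open chromatin from postnatal day 0 (P0) mouse hippocampus, made by ATAC-seq, in which Tn5 transposase inserts adapters where DNA is accessible. There were 2 cKO libraries (Kdm2b Emx1-ΔCxxC), rep1 and rep2, and 2 Ctrl libraries, numbered likewise. In cKO mice, Emx1-Cre, which is active in the dorsal telencephalon, deleted the floxed exon of Kdm2b that encodes the CxxC zinc finger, so that cells of other origin in the dissected tissue keep the exon. Ctrl mice carried the floxed allele too, as Kdm2b fl/+ or Kdm2b fl/fl, and the labels do not give the genotype of either Ctrl library. Peak names inside the Ctrl lists differ by a string that may stand for these genotypes, which was not used, and such a difference cannot be told apart from other differences between the Ctrl libraries. The labels also give no sex, litter or number of animals for any library. The titles and the protocol name hippocampus, while the source field names neural progenitor cells, and nothing states that libraries of a group came from separate animals, so that any p-value measures the spread between these libraries only.

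KDM2B binds unmethylated CpG islands through its CxxC zinc finger and brings PRC1.1 to them. Within the complex, PCGF1 pairs with RING1 (RING1A) or RNF2 (RING1B), the ubiquitin ligases that place a single ubiquitin on histone H2A (the mark H2AK119ub). BCOR or BCORL1 bridges PCGF1 and KDM2B, RYBP or YAF2 binds the ligase and stimulates it, and USP7 is a ubiquitin protease that copurifies with the complex. Each of these genes is expressed in many tissues, and the question put to the lists was how open their own promoters were in cKO and Ctrl hippocampi.

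The 4 lists differed in ways that bear on every value given here. Ctrl rep1 held 46389 peaks, Ctrl rep2 held 7037, cKO rep1 held 21404 and cKO rep2 held 44535. Ctrl rep2 rested on the most fragments, an estimated 29.6 M against 14.6 to 19.4 M in the others, and yet had the fewest peaks, 60.6% of them repeat-masked against 5.37 to 14.7%. This library stands apart, so results are given with and without it, and its part in each difference was not tested. Of 10 markers of dorsal telencephalon and hippocampus, 8 had a promoter peak in Ctrl rep1, none in Ctrl rep2, 5 in cKO rep1 and 9 in cKO rep2. Emx1 had none in cKO rep1 and Bcl11b none in any list. Of 8 neural progenitor markers, 7, 0, 4 and 8 did, in the order used throughout (Ctrl rep1, Ctrl rep2, cKO rep1, cKO rep2). None of 6 microglial markers had a promoter peak in any library, at most 2 of 6 markers of blood vessels and of choroid plexus did, and of 6 interneuron markers 4, 0, 1 and 2 did. A CpG island lies at a promoter of 8 of the telencephalic, 7 of the progenitor and 6 of the interneuron markers. It does so for 0 of the microglial, 3 of the vessel and 3 of the choroid plexus markers. In Ctrl rep1, 87.2% of genes with an island had a promoter peak, against 58% of all protein-coding genes. These counts were not tested as a measure of cell composition.

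Sequences are given for 4 start sites of these genes, with and without a peak close by. They are RefSeq promoters on the GRCm38.p6 assembly, from 250 bases before to 50 bases after the annotated start, all on the minus strand and written 5′ to 3′, with each CpG in capitals. The internal and an upstream start of Kdm2b were chosen because the peaks lie at the former and not at the latter. Rnf2 was chosen for a summit almost on an annotated start, and Usp7 for a start that is the richest in CpG of the members' windows but has its peak to one side. The RefSeq start of the Rnf2 window, at 151500991, lay 32, 20 and 27 bp upstream of the summits in Ctrl rep1, cKO rep1 and cKO rep2.
Kdm2b, internal start, chr5:122900301-122900600: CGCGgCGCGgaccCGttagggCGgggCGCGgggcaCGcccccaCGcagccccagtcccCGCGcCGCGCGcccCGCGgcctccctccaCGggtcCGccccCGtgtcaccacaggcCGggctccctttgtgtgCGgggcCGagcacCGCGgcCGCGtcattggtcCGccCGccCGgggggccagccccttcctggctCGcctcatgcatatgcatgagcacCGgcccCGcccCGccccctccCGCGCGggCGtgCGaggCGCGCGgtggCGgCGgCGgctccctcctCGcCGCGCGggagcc
Kdm2b, upstream start, chr5:122989050-122989349: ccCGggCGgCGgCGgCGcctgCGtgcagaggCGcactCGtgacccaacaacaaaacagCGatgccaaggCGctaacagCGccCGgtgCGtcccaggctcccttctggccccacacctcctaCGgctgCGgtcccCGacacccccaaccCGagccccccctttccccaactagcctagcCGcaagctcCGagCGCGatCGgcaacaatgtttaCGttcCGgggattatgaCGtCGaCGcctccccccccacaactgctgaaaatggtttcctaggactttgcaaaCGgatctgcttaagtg
Rnf2, chr1:151500942-151501241: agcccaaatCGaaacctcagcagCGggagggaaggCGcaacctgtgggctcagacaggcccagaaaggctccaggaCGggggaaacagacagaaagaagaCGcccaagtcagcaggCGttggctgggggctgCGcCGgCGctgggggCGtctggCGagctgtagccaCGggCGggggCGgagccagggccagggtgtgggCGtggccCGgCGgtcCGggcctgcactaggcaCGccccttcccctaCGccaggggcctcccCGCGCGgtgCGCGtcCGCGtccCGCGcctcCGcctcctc
Usp7, chr16:8738293-8738592: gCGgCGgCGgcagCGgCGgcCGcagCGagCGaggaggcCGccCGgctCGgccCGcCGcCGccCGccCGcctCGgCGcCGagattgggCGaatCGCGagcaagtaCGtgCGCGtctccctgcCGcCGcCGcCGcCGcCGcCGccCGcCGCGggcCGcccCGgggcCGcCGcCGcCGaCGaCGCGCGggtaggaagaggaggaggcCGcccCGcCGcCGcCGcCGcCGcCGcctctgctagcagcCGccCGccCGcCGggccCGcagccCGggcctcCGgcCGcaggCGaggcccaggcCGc
The internal Kdm2b window holds 49 CpGs and is 81.7% GC, more CpGs than 99.0% of the 32817 distinct promoters in the table. The upstream Kdm2b window holds 28 CpGs at 63.7% GC, the Rnf2 window 30 at 72.7% and the Usp7 window 63 at 86% GC. All 4 are far above the median promoter, which has 7 CpGs and is 52.7% GC. Of the 9 genes, 6 were in the promoter table, with 10 windows, and Pcgf1, Rybp and Yaf2 were not.

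A promoter peak was a peak whose summit lay within 2 kb of an annotated transcription start site (TSS) of the gene, and the 9 genes have 21 distinct TSSs. Promoter peaks were listed for 9 of the 9 genes in Ctrl rep1, 1 of 9 in Ctrl rep2, 8 of 9 in cKO rep1 and 9 of 9 in cKO rep2. Of all protein-coding genes, 58% had a promoter peak in Ctrl rep1, 8.27% in Ctrl rep2, 40.3% in cKO rep1 and 55.9% in cKO rep2. All 9 genes have a CpG island at a promoter, and of the 12643 protein-coding genes with one, the same 4 libraries listed 87.2%, 13.5%, 63.4% and 84.9%. The count over the members was near the share of island genes in Ctrl rep1, Ctrl rep2 and cKO rep2 and higher in cKO rep1. Of the 9 genes, 8 had a promoter peak in all of Ctrl rep1, cKO rep1 and cKO rep2, against 63% of island genes. Pcgf1 was the member found in all 4 lists, and Usp7 the member missing from cKO rep1.

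To compare lists of unequal length, each gene was given a promoter percentile, the percentage of protein-coding genes with a weaker peak than it, by −log10 p, at their best promoter in that library, and 0 for a gene without a peak. The median over the 9 genes was 68.5 in Ctrl rep1, 0 in Ctrl rep2, 74.9 in cKO rep1 and 68.2 in cKO rep2. Island genes had medians of 68.9, 0, 68.7 and 68.8. The members thus ranked as island genes did in Ctrl rep1 and cKO rep2 and above them in cKO rep1, a difference that was not tested. Among the members, the order was led in each library by Pcgf1, followed by Bcorl1 and Rnf2 in the 3 libraries where these had peaks.

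**Figure D1:**
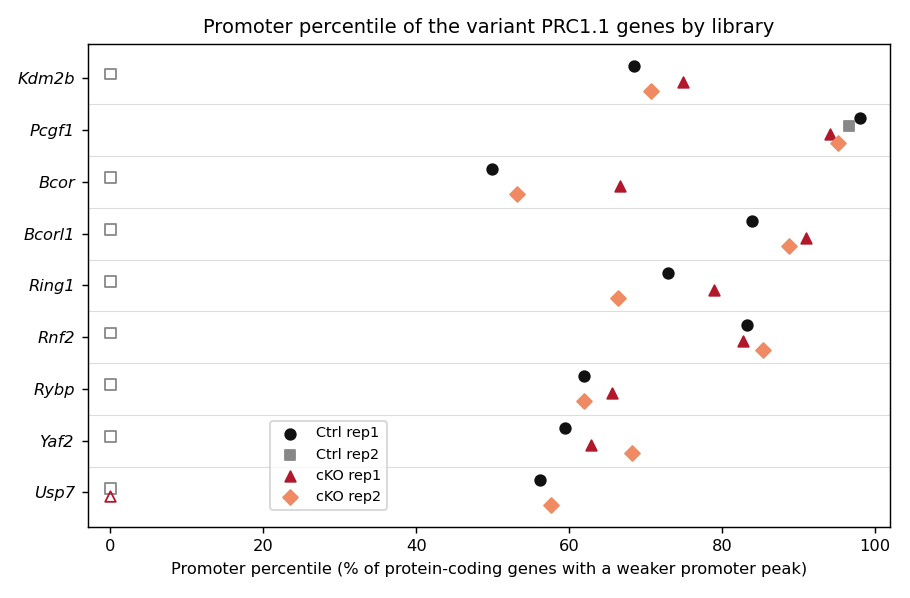
Promoter percentile (x axis, percent of protein-coding genes with a weaker promoter peak) of each PRC1.1 gene (y axis) in each of the 4 libraries, with open symbols at 0 for a gene without a promoter peak. Pcgf1 lies between 94.1 and 98.1 in all 4 libraries, while the other 8 genes are at 0 in Ctrl rep2 and Usp7 is at 0 in cKO rep1 as well.

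Percentiles were higher in both cKO libraries than in both Ctrl libraries for 4 of the 9 genes, Kdm2b, Bcor, Bcorl1 and Yaf2, and lower for 1, Pcgf1. Among 13196 protein-coding genes whose promoter was listed in any library, 20.5% were higher in this way and 2.8% lower. A gene without a peak in Ctrl rep2 could not be lower, so the 370 lower genes were all among the 1815 with one. Of the members, Pcgf1 alone had such a peak. Since 8 of the members were at 0 in Ctrl rep2, their order was set by Ctrl rep1. Against Ctrl rep1 alone, the same 4 genes were higher in both cKO libraries and Pcgf1 was lower, where 23.8% of 13176 genes were higher and 36.6% lower. With 2 libraries a group, the exact permutation test (two-sided, with 6 possible assignments of libraries) has 0.33 as its smallest p, and after Benjamini-Hochberg adjustment over all protein-coding genes the adjusted p was 1 for every member. No gene, member or not, had a p under 0.05 before or after adjustment (0 and 0 genes), which this design could not have given.

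Kdm2b (ENSMUSG00000029475.17, chr5:122870665-122989823, minus strand), the gene that was targeted, was open at its internal start. Its strongest promoter peak had a percentile of 68.5 in Ctrl rep1, 74.9 in cKO rep1 and 70.7 in cKO rep2, and no peak was listed in Ctrl rep2. Both cKO libraries lay above both Ctrl libraries, and the gap between Ctrl rep1 and cKO rep2 was smaller than that between the cKO libraries. The cKO mean was 72.8 ± 3.01 and the Ctrl mean 34.3 ± 48.4 (SD, n = 2 each), which lie 38.5 points apart (exact permutation p = 0.33, adjusted p = 1). Without Ctrl rep2 the difference was 4.28 points.

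Of 5 annotated Kdm2b starts, the internal start at position 122900355 carried the promoter peak in each of the 3 libraries, with summits 103 bp upstream, 77 bp downstream and 95 bp upstream of it. This start lies inside the longer transcripts, in an intron, and transcripts from it lack the upstream exons. The upstream start at 122989099 and the others near it at 122989823, 122989306 and 122988533 had no summit within 2 kb in any list, and the nearest peak lay 16113 bp or more away. All 5 starts have a CpG island within 2 kb, so that the islands at the long transcripts' starts were without a listed peak. In the sequences printed above, the start with a peak has 49 CpGs and the start without one 28. RefSeq places the internal start at 122900350, a few bases from the annotated one.

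The floxed exon cannot be checked from peaks. This is exon 13 of the full-length transcript, chr5:122888530-122888754, which spans 225 bp and overlapped 0 peaks in every library, Ctrl and cKO alike. The nearest peak was 11384 bp away in Ctrl rep1, 38096 bp in Ctrl rep2, 11351 bp in cKO rep1 and 11393 bp in cKO rep2. In Ctrl rep1 and the cKO libraries this nearest peak was that at the internal start. Reads over the exon were not analysed here, and the deletion in the cKO libraries was therefore taken from the labels.

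Outside the promoter, Kdm2b had 4 further peak regions, 3 of them in introns, and none in cKO rep1 or Ctrl rep2. Of these, 3 were shared by Ctrl rep1 and cKO rep2. The region at chr5:122950564-122951267 had a scaled depth, the fragment depth at the summit as a multiple of the library's mean genome depth, of 10.5 in Ctrl rep1 and 14.4 in cKO rep2. A region 16113 bp upstream of the first annotated start, at chr5:123005753-123006364, had 7.40 and 13.8. The last of them, at chr5:122938206-122938438, was listed in cKO rep2 alone, at a scaled depth of 10.5. None of the 4 overlapped an island.

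**Figure D2:**
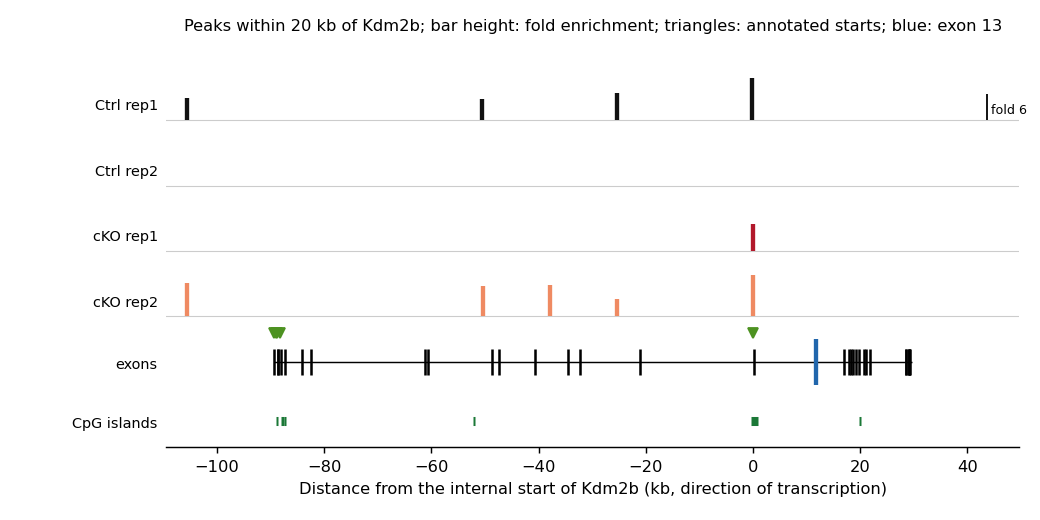
Peaks at Kdm2b and 20 kb either side in each library, placed by distance in kb from the internal start in the direction of transcription, with bar height giving MACS2's fold enrichment (bar widths are not to scale) and rows for exons, annotated starts (triangles) and CpG islands. The promoter peak sits at the internal start in 3 libraries, the cluster of upstream starts has none, Ctrl rep2 has no peak, and exon 13 (blue) overlaps 0 peaks.

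Pcgf1 (ENSMUSG00000069678.10, chr6:83077869-83080855, plus strand), which encodes the PCGF protein that defines PRC1.1, had the strongest promoter peak of the 9 genes in every library. Its percentiles were 98.1 in Ctrl rep1, 96.5 in Ctrl rep2, 94.1 in cKO rep1 and 95.1 in cKO rep2. The groups did not overlap and the gap was small, with each cKO library below each Ctrl library. Means of 94.6 ± 0.748 were found for cKO and 97.3 ± 1.1 for Ctrl (SD, n = 2 each), and the difference was -2.73 points (exact permutation p = 0.33, adjusted p = 1).

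The fragment depth at Pcgf1 overlapped between the groups. At the summit there were 129 fragments in Ctrl rep1, 24 in Ctrl rep2, 44 in cKO rep1 and 96 in cKO rep2. These are scaled depths of 79.5, 6.93, 21.2 and 53.1. The Ctrl libraries held both the highest and the lowest value. On average cKO had 37.2 ± 22.6 and Ctrl 43.2 ± 51.3 (SD, n = 2 each), which differ by -6.05 (exact permutation p = 1). Leaving out 1 library gave 30.2 without Ctrl rep1, -42.3 without Ctrl rep2, 9.91 without cKO rep1 and -22.0 without cKO rep2, so the sign depended on the libraries used. The summits lay 13 to 86 bp downstream of the TSS at 83078390, in a peak of 449 to 975 bp that overlaps a coding exon and an island. This was the gene's sole region, with no other peak within 20 kb in any library.

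Bcor (ENSMUSG00000040363.15, chrX:12036740-12160355, minus strand) and Bcorl1 (ENSMUSG00000036959.15, chrX:48341358-48408049, plus strand) encode alternative corepressors of the complex and are both X-linked. Bcor had percentiles of 49.9 in Ctrl rep1, 66.6 in cKO rep1 and 53.2 in cKO rep2, and Bcorl1 of 83.9, 91.0 and 88.8. Neither had a peak in Ctrl rep2. For each gene both cKO libraries were above both Ctrl libraries, and Bcorl1 ranked above Bcor in each library with peaks. The Bcor means were 59.9 ± 9.48 in cKO and 24.9 ± 35.3 in Ctrl (SD, n = 2 each), and the difference was 35.0 points (exact permutation p = 0.33, adjusted p = 1). The Bcorl1 means were 89.9 ± 1.59 and 42.0 ± 59.4 (SD, n = 2 each), and the difference was 47.9 points (exact permutation p = 0.33, adjusted p = 1). Leaving out Ctrl rep2 brought these to 10.0 and 5.98 points.

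The Bcor peak that set its percentile was not at a start. Its summits lay 1998 bp, 1762 bp and 1988 bp downstream of the 5′-most start at 12160355, just inside the 2 kb limit in Ctrl rep1 and cKO rep2. The region, chrX:12158288-12158793, overlaps an island in the first intron. At the other annotated start, at 12080553, a peak was listed in Ctrl rep1, at rank 43878 of 46389, and in cKO rep2, at rank 30219 of 44535. cKO rep1 had no peak there. Within 1 kb of a start, Bcor therefore had a peak in Ctrl rep1 and cKO rep2 and none in cKO rep1. With that narrower promoter its percentiles were 44.6, 0, 0 and 52.6, the difference between groups was 4.02 points (exact permutation p = 1), and Bcor was no longer higher in both cKO libraries.

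Bcor held 18 of the 41 peak regions found at the 9 genes, more than any other member, and 15 of them lay outside its promoters. The strongest, at chrX:12057014-12057791, overlaps a coding exon 23117 bp downstream of the start at 12080553. It ranked 7927 in Ctrl rep1, 6551 in cKO rep1 and 13236 in cKO rep2, ahead of the promoter peak in each. Of the 18 regions, 13 were listed in a single library, 6 in Ctrl rep1, 6 in cKO rep2 and 1 in cKO rep1. The gene had 11 CpG islands within it or 20 kb of it, and 9 of its peak regions overlapped one.

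**Figure D3:**
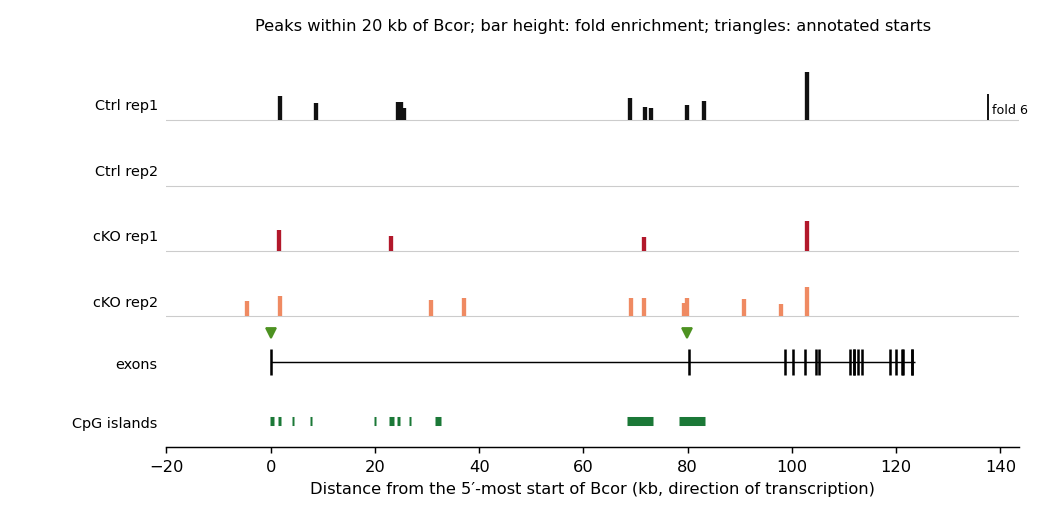
Peaks at Bcor and 20 kb either side in each library, placed by distance in kb from the 5′-most start in the direction of transcription, with bar height giving MACS2's fold enrichment (bar widths are not to scale) and rows for exons, annotated starts (triangles) and CpG islands. The highest bar in Ctrl rep1, cKO rep1 and cKO rep2 is the coding-exon region in the 3′ part of the gene, and Ctrl rep2 has no peak.

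At Bcorl1 the peak lay at the internal start at 48343770, with summits 114 bp, 96 bp and 125 bp upstream of it. The upstream start at 48341358 was just outside the limit, with the nearest summit 2287 to 2316 bp downstream. The gene also had a region 2173 bp past its 3′ end, chrX:48409950-48410429, in the same 3 libraries. Its scaled depth was 16.0 in Ctrl rep1, 4.82 in cKO rep1 and 12.7 in cKO rep2, below the promoter's 36.4, 15.4 and 39.9.

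Ring1 (ENSMUSG00000024325.8, chr17:34020792-34024680, minus strand) and Rnf2 (ENSMUSG00000026484.13, chr1:151458004-151500955, minus strand) encode the alternative ubiquitin ligases. Ring1 had percentiles of 73.0 in Ctrl rep1, 79.0 in cKO rep1 and 66.4 in cKO rep2. Rnf2 had 83.3, 82.7 and 85.3. Neither had a peak in Ctrl rep2, and in both genes the Ctrl rep1 value lay between the cKO values. Rnf2 varied less over these libraries than Ring1 did. The cKO minus Ctrl difference was 36.2 points for Ring1, between means of 72.7 ± 8.94 and 36.5 ± 51.6, and 42.4 points for Rnf2, between 84.0 ± 1.83 and 41.6 ± 58.9 (SD, n = 2 each, exact permutation p = 0.667 and adjusted p = 1 for each). Without Ctrl rep2 these were -0.292 and 0.745 points.

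The summits of both ligase genes sat close to a start. Those of Rnf2 were 4, 16 and 9 bp upstream of the start at 151500955, and those of Ring1 were 60, 82 and 108 bp downstream of the start at 34024680. The Ring1 summit is also within 2 kb of the starts of Gm26940, Mir219a-1 and Mir219c, and that of Rnf2 of Gm36527, so the openness of these promoters cannot be told apart. Ring1 lies among other genes, and its 2 regions outside the promoter were promoters of neighbours, H2-Ke6 at 3397 bp and Slc39a7, Rxrb and Gm20427 at 7026 bp upstream. The latter had a greater depth than Ring1 itself, with scaled depths of 37.6, 18.8 and 38.7 against 29.6, 12.1 and 22.1.

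Rybp (ENSMUSG00000072872.3, chr6:100228565-100287485, minus strand) and Yaf2 (ENSMUSG00000022634.9, chr15:93284278-93336935, minus strand) encode the homologous proteins that stimulate the ligase. Rybp had percentiles of 62.0 in Ctrl rep1, 65.6 in cKO rep1 and 61.9 in cKO rep2, and Yaf2 of 59.5, 62.8 and 68.2. Neither had a peak in Ctrl rep2. Both cKO libraries were above Ctrl rep1 for Yaf2, while for Rybp Ctrl rep1 lay between them. The Rybp difference was 32.8 points, between 63.7 ± 2.59 in cKO and 31.0 ± 43.8 in Ctrl (SD, n = 2 each, exact permutation p = 0.667, adjusted p = 1). That of Yaf2 was 35.8 points, between 65.5 ± 3.80 and 29.7 ± 42.0 (SD, n = 2 each, exact permutation p = 0.33, adjusted p = 1). Without Ctrl rep2 they were 1.76 and 6.06 points. With peaks held to a −log10 q of at least 5, neither gene kept its peak in cKO rep1, Yaf2 was no longer higher in both cKO libraries, and the differences were -0.0319 and 4.37 points (exact permutation p = 1 for each). With promoters of 1 kb, Rybp was higher in both cKO libraries, at 63.0, 0, 66.6 and 62.98, a gap to Ctrl rep1 of a small part of a point in cKO rep2.

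The Rybp promoter was weaker than a region beyond the gene's 3′ end. That region, chr6:100218395-100219182, lies 9815 bp past the end, overlaps no island, has no annotated start within 2 kb of its summit, and ranked 2680 in Ctrl rep1, 1265 in cKO rep1 and 3026 in cKO rep2. The Rybp promoter peak ranked 14027, 15384 and 16826 in these lists. At the promoter, summits were 41 bp, 357 bp and 38 bp upstream of the start at 100287485, the cKO rep1 summit being the one farther off. For Yaf2, summits were 197 bp, 223 bp and 247 bp upstream of the start at 93336808, on 23 fragments in Ctrl rep1, 12 in cKO rep1 and 29 in cKO rep2. A second region 8928 bp past the 3′ end of Yaf2 is the promoter of Gxylt1.

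Usp7 (ENSMUSG00000022710.17, chr16:8689595-8792308, minus strand) encodes the ubiquitin protease. It had percentiles of 56.2 in Ctrl rep1 and 57.7 in cKO rep2 and no promoter peak in Ctrl rep2 or cKO rep1, so each group held a library with a peak and a library without. On average cKO had 28.8 ± 40.8 and Ctrl 28.1 ± 39.7 (SD, n = 2 each), 0.748 points apart (exact permutation p = 1, adjusted p = 1). Leaving out 1 library gave 28.8 points without Ctrl rep1, -27.3 without Ctrl rep2, 29.6 without cKO rep1 and -28.1 without cKO rep2, so that each library decided the sign or size. The summit was 659 bp and 668 bp upstream of the start at 8738342, on 21 fragments in each library. In cKO rep2 a further, weaker peak lay 359 bp downstream of it. The upstream start at 8792308 has no island and had no peak in any list.

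A gene without a listed peak in cKO rep1 may still be open there below that library's limit. The weakest promoter peak that entered a percentile corresponded to a percentile of 42.0 in Ctrl rep1, 91.7 in Ctrl rep2, 59.7 in cKO rep1 and 44.1 in cKO rep2. The Usp7 values of 56.2 and 57.7 lie below 59.7, so that a difference at Usp7 was not detectable from the list of cKO rep1. Likewise the percentiles of the 8 members other than Pcgf1, of which the highest was 91.0 for Bcorl1 in cKO rep1, were under the 91.7 at which the list of Ctrl rep2 ended.

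The same limits raise the percentiles of weak peaks in the shorter lists, since a gene with any promoter peak had at least 59.7 in cKO rep1 and at least 91.7 in Ctrl rep2. In an alternative chosen after seeing the data, percentiles were taken among those protein-coding genes whose promoters were listed in Ctrl rep1, cKO rep1 and cKO rep2. Kdm2b then had 25.1 in Ctrl rep1, 37.0 in cKO rep1 and 29.4 in cKO rep2, Bcor 1.77, 16.5 and 3.63, and Bcorl1 60.0, 77.5 and 71.9. These genes were still higher in both cKO libraries. Yaf2 was not, with 10.6, 7.18 and 24.4. Pcgf1 was still lower, with 95.2, 85.1 and 87.8. The shares of all genes higher or lower on this scale were not counted, so these orders have no background to be read against. On this scale Kdm2b, Bcor, Ring1, Rybp and Yaf2 were below 50 in all 3 libraries, Ring1 having 34.4, 47.3 and 20.9.

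The summits of 7 of the 9 genes lay within 357 bp of a start in each library with a peak, the exceptions being Bcor and Usp7. Over every protein-coding gene whose promoter was listed, the median distance was 91 to 141 bp, and 9.04 to 11.9% of strongest promoter peaks lay more than 500 bp from a start. Usp7 is 86% GC at its start, and whether this bears on the place of its summit was not tested. Rybp (82.7% GC), the internal Kdm2b start (81.7%) and Yaf2 (79.3%) had summits 41, 103 and 197 bp away in Ctrl rep1. The Bcor start from which its summits were measured is 61% GC. In the promoter table, the share of starts with a summit within 250 bp in Ctrl rep1 was 17% at 45 to 55% GC, 51.5% at 55 to 65%, 69.7% at 65 to 75% and 50.5% at 75% GC or more, so the share was lower in the most GC-rich class than in the class below it. The same order of the last classes held in the other 3 libraries (51.1% and 33.4% in cKO rep1, 67.8% and 49.1% in cKO rep2, 9.29% and 2.02% in Ctrl rep2). For summits within 2 kb, these classes were close in Ctrl rep1 (86.9% and 86.8%) and cKO rep2 (84.3% and 83.5%). They were further apart in cKO rep1 (64.3% and 57.5%) and Ctrl rep2 (13.7% and 7.40%).

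**Figure D4:**
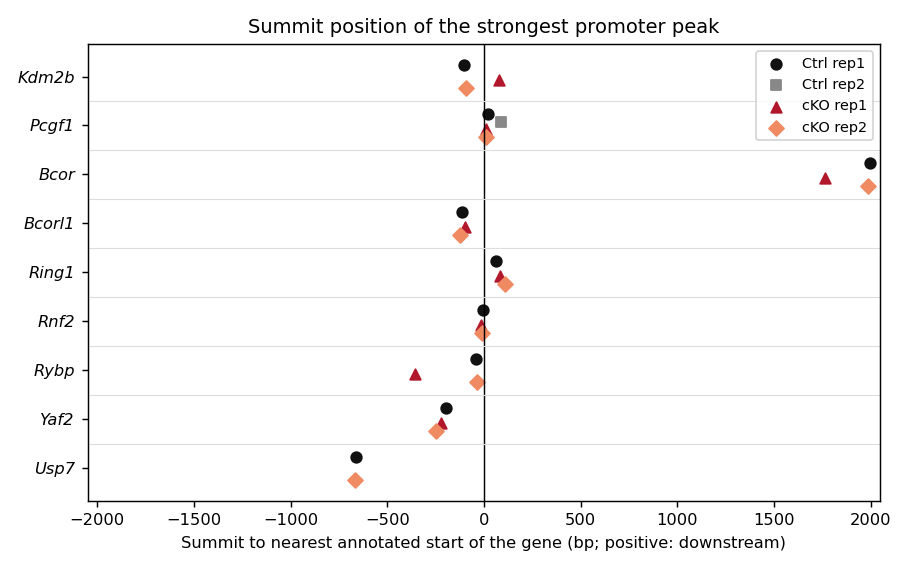
Distance in bp (x axis, positive values downstream) from the nearest annotated start of the gene to the summit of its strongest promoter peak, for each PRC1.1 gene (y axis) and library. The Bcor summits lie 1762 to 1998 bp downstream and the Usp7 summits 659 and 668 bp upstream, while the other 7 genes have theirs within 357 bp.

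Promoter depth differed widely between the libraries of a group. The median scaled depth of the strongest promoter peaks of all protein-coding genes was 23.4 in Ctrl rep1, 6.06 in Ctrl rep2, 11.6 in cKO rep1 and 19.9 in cKO rep2. For each of the 8 members with a peak in all of Ctrl rep1, cKO rep1 and cKO rep2, cKO rep1 was the lowest of these. For Kdm2b the scaled depths were 20.3, 9.16 and 18.3, from 33, 19 and 33 fragments. Divided by the median promoter peak of the library, they were 0.868, 0.792 and 0.917, so that cKO rep1 was still the lowest, Ctrl rep1 and cKO rep2 changed places, and the spread shrank. Rnf2 gave scaled depths of 36.4, 12.1 and 33.2, Rybp 17.9, 7.23 and 14.4, and Yaf2 14.2, 5.78 and 16.1. Bcor was the shallowest of the 9 in Ctrl rep1, at 9.25 from 15 fragments, and had 6.75 and 11.6 in the cKO libraries. The 2 values of Usp7 were 12.9 and 11.6. Pcgf1, Bcorl1, Ring1 and Rnf2 lay above the median promoter peak in all 3 libraries, and Kdm2b, Bcor, Rybp and Yaf2 below it. These depths are counts of fragments, which carry counting error beside the spread between libraries.

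**Figure D5:**
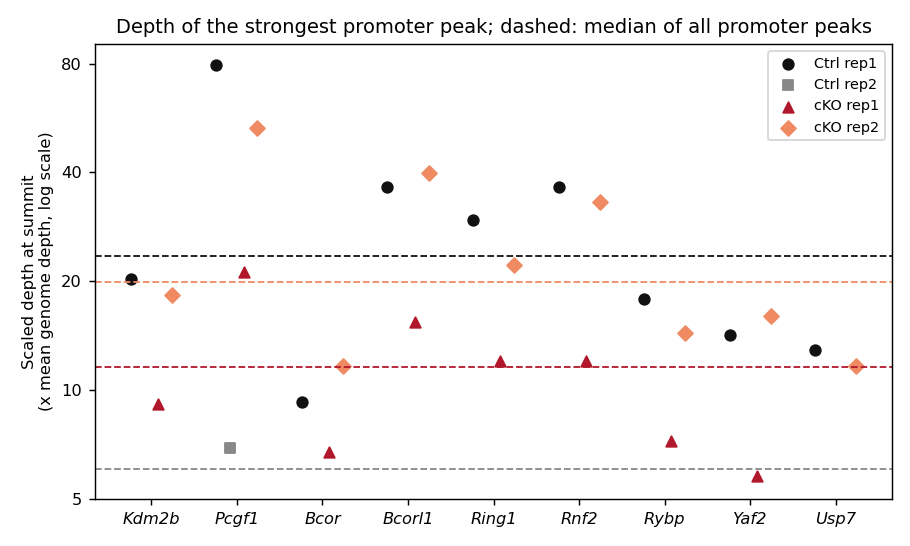
Scaled depth at the summit of the strongest promoter peak (y axis, multiples of the mean genome depth, log scale) for each PRC1.1 gene and library, with dashed lines at the median over all promoter peaks of each library. The cKO rep1 points, 5.78 to 21.2, lie below those of Ctrl rep1 and cKO rep2 for each gene, as does the cKO rep1 median of 11.6 against 23.4 and 19.9.

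Within the gene bodies and 20 kb on either side, the 9 genes held 32 peaks in Ctrl rep1, 1 in Ctrl rep2, 16 in cKO rep1 and 30 in cKO rep2. The cKO mean was 6.5 peaks above the Ctrl mean, and without Ctrl rep2 it was 9 peaks below Ctrl rep1. Merged over libraries, these peaks made 41 regions, 12 at promoters and 29 elsewhere, with 24 in introns, 5 in exons, 7 upstream and 5 downstream. An island was overlapped by 22 of them. In number of libraries, 1 region was in all 4, 14 in 3, 7 in 2 and 19 in 1. No region was in both cKO libraries and neither Ctrl library, against 0.692% of the 58652 regions of all 4 lists, and none was in both Ctrl libraries and neither cKO library, against 0.305%. Both counts are near these shares, and Ctrl rep2 held 1 peak of the members, so the latter count could be at most 1. All 7 regions found in 2 lists were shared by Ctrl rep1 and cKO rep2, the longest lists. Of those in 1 list, 10 were in Ctrl rep1, 8 in cKO rep2 and 1 in cKO rep1.

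When each list was held to its 7037 strongest peaks, the length of the shortest list, promoter peaks were left for 3 members in Ctrl rep1, 1 in Ctrl rep2, 4 in cKO rep1 and 3 in cKO rep2. Of all protein-coding genes, 26.1%, 8.27%, 21% and 23.2% were left, and of island genes 42.3%, 13.5%, 34.2% and 37.7%, so that the members' counts were near those of island genes. In Ctrl rep1 and both cKO libraries these included Pcgf1, Bcorl1 and Rnf2, and in cKO rep1 also Ring1, at rank 7030. The peaks in and near the genes numbered 6, 1, 8 and 6. At equal list length Bcorl1 was higher in both cKO libraries and Pcgf1 lower, 1 member each, where 17.6% of 6341 listed genes were higher and 5.82% lower. Here too a gene could be lower only with a peak in Ctrl rep2, and 369 of the 1815 with one were. Kdm2b, Bcor, Rybp, Yaf2 and Usp7 then had no promoter peak in any library.

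Other variant PRC1 complexes share the ligases and RYBP or YAF2 and differ in their PCGF protein and its partners. A list of 19 other subunits, among them SKP1 of PRC1.1, KDM2A and the partners of PCGF3, PCGF5 and PCGF6, had promoter peaks for 19, 5, 15 and 19 genes in the order given above. All 19 have an island at a promoter, where 87.2%, 13.5%, 63.4% and 84.9% of island genes had a peak. The median percentiles were 84.0, 0, 86.1 and 83.6, each at or above that of the PRC1.1 genes, and no test was made of the difference between the lists. Both cKO libraries were above both Ctrl libraries for 4 of the 19, Skp1a, Kdm2a, Fbrsl1 and Dcaf7, and none of the 19 was lower in both. Of 11298 island genes with a promoter peak in any library, 21.3% were higher and 3.12% lower, so the count of higher genes is near the background. Only genes with a peak in Ctrl rep2 could be lower, and 5 of the 19 had one. Of the 1705 island genes with such a peak, 353 were lower. Pcgf6, L3mbtl2, E2f6 and Csnk2a2, the last a catalytic subunit of casein kinase 2, had peaks in Ctrl rep1 and cKO rep2 and none in cKO rep1. The other 15 genes had a peak in all of Ctrl rep1, cKO rep1 and cKO rep2. The percentile of L3mbtl2 was 82.1 in Ctrl rep1 and 84.4 in cKO rep2, both above the limit of 59.7 of cKO rep1. Csnk2a2 had 47.0 and 50.8, both below it, while Pcgf6 had 53.3 and 69.1 and E2f6 52.1 and 60.7, below it in Ctrl rep1 and above it in cKO rep2. The 5 with a peak in Ctrl rep2 were Pcgf3, Fbrs, Csnk2b, Max and Cbx3, at percentiles of 91.9 to 99.2 there.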

How the data were processed

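P0 hippocampal nuclei were profiled by ATAC-seq in 2 cKO and 2 Ctrl libraries, grouped by the sample titles. According to the study's methods, paired reads were trimmed with Cutadapt, aligned to mm10 with Bowtie2, cleared of blacklisted regions, mitochondrial reads and duplicates, shifted for the Tn5 offset, and peaks were called with MACS2 2.2.7.1. The deposited lists are 1 per library, and the ATAC-seq methods name no input control. Trimmed reads and the removal of duplicates can lower the depth in repeats and at strong peaks.

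Each deposited list gives a score, which was not used, the fold enrichment at the summit, a −log10 p-value, a −log10 q-value and another column, the summit offset, all made by the authors' run of MACS2. Folds and p-values were used within a list only. Fragment depth was recovered from the fold and the p-value, a whole number fitting within 0.01 for at least 99.986% of peaks in each list, and the number of fragments in a library is an estimate from the lowest background and the shortest peak. Positions are 1-based in mm10, with the basic set of GENCODE M21. CpG islands were computed from the reference sequence (at least 200 bp, 50% GC and an observed over expected CpG ratio of 0.6). Repeat-masked peaks are those with 50% or more soft-masked bases in the reference.

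Groups were compared as differences of means (cKO minus Ctrl) by an exact two-sided permutation test, computed for all protein-coding genes. The scripts were tested on simulated data and run with Python 3.11.15, NumPy 2.4.6, pandas 2.3.3 and SciPy 1.17.1. All 9 members are named, and of the other lists those without a peak in Ctrl rep1 or a cKO library, those with a peak in Ctrl rep2, and those higher in both cKO libraries, the last chosen after their values were seen. The members and lists were chosen with earlier results of these data known, although the rule for the members uses none of their values. Alternatives changed the promoter width, the peak threshold, the list length, the set of genes ranked, the flank and the libraries used.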

Additional observations from a re-analysis of the deposited data

How the results depend on the processing

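With 2 libraries a group, leaving out a single library changed the size of most differences and the sign of some. Over the 4 such repeats, the difference (cKO minus Ctrl) in the number of members with a promoter peak ranged from -0.5 to 7.5, in peaks in and near the members from -9 to 22, and in members ranked higher minus lower in both cKO libraries from 3 to 6. The lowest of the first 2 values came without Ctrl rep2 and the highest without Ctrl rep1. The difference in peaks was also 13.5 without cKO rep1 and -0.5 without cKO rep2. Ring1 ranged from -0.292 points without Ctrl rep2 to 72.7, Usp7 from -28.1 to 29.6 points, with -27.3 without Ctrl rep2, and the Pcgf1 scaled depth ranged from -42.3 to 30.2. Equal-size lists gave 1.5 more members with a promoter peak, 3.5 more peaks and 0 for members higher minus lower. Gene bodies alone gave 4 more peaks. Requiring −log10 q of at least 5 turned Rybp to -0.0319 points, and mid-ranks for genes without a peak turned Usp7 to -7.25 points. In these cases the cause was not tested. Mid-ranks kept all peaks and libraries and gave Usp7 45.9 in Ctrl rep2 and 29.9 in cKO rep1 in place of 0. The other settings named so far kept fewer peaks or libraries. The promoter of 1 kb, any overlap with the promoter, a fold of at least 4, island genes alone, 50 kb either side and the removal of repeat-masked peaks turned no direction. With promoters of 1 kb, however, Bcor moved to 4.02 points and Rybp took its place among the 4 members higher in both cKO libraries. Shares of all genes higher or lower were counted in the main setting, against Ctrl rep1 alone and for equal-size lists only. A −log10 q of at least 5 also moved Yaf2 to 4.37 points. Equal-size lists took Kdm2b, Bcor, Rybp, Yaf2 and Usp7 to 0 points.

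The deviations of same-numbered libraries from their group means correlated at 0.053 over 13196 genes, a value that is identical for both numbers by construction. This cannot decide whether replicate numbers pair the libraries, since most genes were at 0 in Ctrl rep2 and the labels give no litter. With the number as a replicate block, members higher minus lower came to 5, the other differences were as without it, and no exact sign-flip test can go below 0.5. The length of each list, set by its own threshold, limits what could be detected.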

Other observations

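H2AK119ub, the mark that the PRC1.1 ligases place, is removed by dedicated enzymes, and a list of 8 of their genes was read in the same way. BAP1 is the ubiquitin protease that works with ASXL1, ASXL2 or ASXL3 and with FOXK1 and FOXK2, while USP16 and MYSM1 are further proteases for ubiquitin on H2A. Promoter peaks were listed for 8 of the 8 genes in Ctrl rep1, 1 in Ctrl rep2, 7 in cKO rep1 and 8 in cKO rep2, and all 8 have an island at a promoter, where 87.2%, 13.5%, 63.4% and 84.9% of island genes had a peak. The median percentiles were 81.3, 0, 87.0 and 82.2. Bap1, Asxl2, Mysm1 and Foxk1 were higher in both cKO libraries than in both Ctrl libraries, each with no peak in Ctrl rep2, and none of the 8 was lower. Of 11298 island genes with a promoter peak in any library, 21.3% were higher and 3.12% lower, and the difference from the 4 of 8 was not tested. Only a gene with a peak in Ctrl rep2 could be lower, and 353 of the 1705 island genes with one were. Bap1 had 81.2 in Ctrl rep1, 84.8 in cKO rep1 and 82.5 in cKO rep2. Asxl1 was the gene with a peak in Ctrl rep2, at 96.8, with 91.5, 92.4 and 94.7 in the other libraries. Foxk2 had no peak in cKO rep1, where cKO rep2 gave 71.9. None of these differences had an adjusted p below 1 (exact permutation test).

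By Euclidean distance over the 4 promoter percentiles, the protein-coding genes nearest to Kdm2b were Bfar and 3110001I22Rik, both at a distance of 0.999 points and with a shared promoter, and Aldh18a1, at 1.04 points. Bfar had 68.7 in Ctrl rep1, 0 in Ctrl rep2, 74.1 in cKO rep1 and 71.3 in cKO rep2. Of the 21938 protein-coding genes, 260 lay within 5 points of Kdm2b, and the number of genes as near to other genes was not counted.

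Short motifs were searched on both strands of the 10 RefSeq promoter windows of 6 members. The SP and KLF motif GGGCGG was in 7 of 10 windows, among them the internal and an upstream Kdm2b window, Rnf2 and Usp7, and in 35.6% of the 32817 promoters. CCAAT, bound by NF-Y, was in 3 windows, 2 of which are overlapping windows of the internal Kdm2b start, and in 37.4% of promoters. The CRE core TGACGTC was in the upstream Kdm2b window and in that of Ring1, and in 3.21% of promoters. ATGGCGG, a YY1 motif, was in the Ring1 window and in 4.05% of promoters. CCGGAAG, an ETS motif, and GCGCATG, of NRF1, were in none of the 10 windows and in 8.86% and 3.90% of promoters. GGGCGG overlaps in part with CpG-rich sequence of any kind, and windows of Kdm2b and of Bcor share most of their bases.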
